A study of Mus musculus with 8 samples.

Results

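The Myc, Max and Mxd network is described here through the 10 genes Myc, Mycn, Max, Mxd1, Mxi1, Mxd3, Mxd4, Mnt, Mga and Mlx. Its members were the array probe sets whose only gene symbol in the platform annotation was one of these names, which gave 26 of the 45101 probe sets and all 10 genes, out of 18194 genes named in all. RNA of mouse embryonic stem cells was hybridised to 8 Affymetrix arrays, 2 for each of 4 groups. All cells were of a 129X1 x 129S1 background, and each sample held a knockdown line and mock cells at 1:4. In the shTop1 coculture, cells with a short hairpin against Top1 shared a dish with mock cells for 4 days. In the shTop1 mix, which the labels call the control, the same kinds of cells were kept apart for those 4 days and their RNA was then pooled. The shp53 coculture and the shp53 mix were made in the same way with a hairpin against p53. Knockdown cells therefore supplied 20% of the RNA in a mix, and their share in a coculture at the end was not measured. The labels call the 2 arrays of a group biological replicates but do not say whether they came from separate thaws or passages, so a p-value here reflects the spread among these arrays alone. They also do not say how many clones a knockdown line held.

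Myc and Mycn are transcription factors that drive cell growth once they pair with Max, a small protein that all of the others except Mlx pair with. The pair binds the E-box, a short DNA motif, and recruits coactivators. Mxd1, Mxi1, Mxd3, Mxd4 and Mnt compete for Max and bring the Sin3 corepressor to the same motif, while Mga pairs with Max in a Polycomb complex that keeps germline genes silent in mouse embryonic stem cells. Mlx is the partner of MondoA (gene Mlxip) and ChREBP (gene Mlxipl), which sense glucose metabolites, and it can also pair with some of the Mxd proteins and with Mnt.

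Values are signals after quantile normalization of the deposited intensities, and differences are on the scale log2(signal + 16), on which changes of dim probe sets are understated. A gene was represented by its brightest probe set, and 14267 genes reached the low-signal filter of 22.1, among them all 10 members. Of the 26 probe sets of the members, 23 passed this filter and 3 did not (1 each of Mxd1, Mnt and Mga). Mean deposited signal was 812 to 896 per array. On the second principal component, with 16.9% of the variance, shTop1 coculture replicate 1 lay at -32.6 and the other 7 arrays between -3.63 and 15.5. Top1 itself averaged 5247 ± 93.3 in shTop1 arrays and 5649 ± 183 in shp53 arrays, a log2 difference of -0.11 (SD, n = 4 each). A two-sided exact permutation test gave p = 0.0286, which no split of 8 arrays can undercut, but the difference was -0.029 with median centring and 0.15 with its probe sets averaged. All 10 stem cell markers passed the filter, among them Pou5f1 and Nanog, and their summed signal was 113400 to 121200 in cocultures and 116700 to 119300 in mixes. By log2 difference of coculture minus mix, averaged over both knockdowns, 7 of them were above 0 and 3 below. Those below were Zfp42 (-0.28), Sox2 (-0.29) and Klf4 (-0.15), which the sum, weighted to the brightest genes, does not show. Of 9 fibroblast markers 4 (Col3a1, Postn, Dcn and Lum) were under the filter, and the sum was 1778 to 2218 in cocultures and 1753 to 2012 in mixes. Pdgfra made up most of it, so the sum says little of the others. By mean log2 difference 4 of the 5 tested were above 0, among them Thy1 (0.35), and Acta2 was below (-0.32). The sum of 8 primitive endoderm markers was 41700 to 46190 in cocultures and 38550 to 40870 in mixes, without overlap, and its part in the differences between cocultures and mixes given here was not tested. Sparc and Lamb1, the brightest, made up most of that sum. Each of the 8 genes by itself had overlapping cocultures and mixes, with mean log2 differences of 0.011 (Gata4) to 0.27 (Foxa2).

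Cocultures were set against mixes, which hold the same kinds of cells kept apart. The knockdown share of a coculture was not measured, so a changed share could bring the knockdowns' own effects into the difference. Averaged over both knockdowns, Mxd3 and Mxi1 had more signal in coculture, and Myc, Mycn and Mxd1 less, each at an unadjusted p below 0.05. None of the 10 members passed limma's test over all genes, where 0 of 14267 genes were called (0%) and the smallest adjusted p was 0.279. At the unadjusted threshold 2 of 10 members were higher, against 7.09% of all genes, and 3 of 10 were lower, against 4.63%. The members were chosen with earlier results of these data known, so these shares are no test of the network. Mxd3 stayed higher at that threshold without any single array, while Mxi1 did so only without shTop1 coculture replicate 1 or shp53 coculture replicate 2, so that the other 6 arrays left out gave 1 higher member. On the lower side 0 members remained without shTop1 coculture replicate 2, either shTop1 mix or shp53 mix replicate 1, and 1 remained without shTop1 coculture replicate 1 (Mycn) or shp53 mix replicate 2 (Mxd1). With the replicate number as a block, the authors' scaling alone or no filter, 1 was higher (Mxd3) and 2 lower (Myc and Mxd1). Median centring lost Mycn, and trended and robust variances or a pseudocount of 64 lost Mxd1. With a gene's probe sets averaged, 1 was higher (Mnt) and 1 lower (Myc). In all 5 members had a difference above 0 and 5 below 0, with a median of -0.0034, beside a median of 0.022 over all genes tested. The 4 cocultures lay above all 4 mixes for Mxd3, Mxi1 and Mlx, which 5.75% of all genes did, and below them for Mycn, which 3.35% did. The arrays hold whole cultures, so fewer cells of a type and less RNA per cell cannot be told apart.

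**Figure D1:**
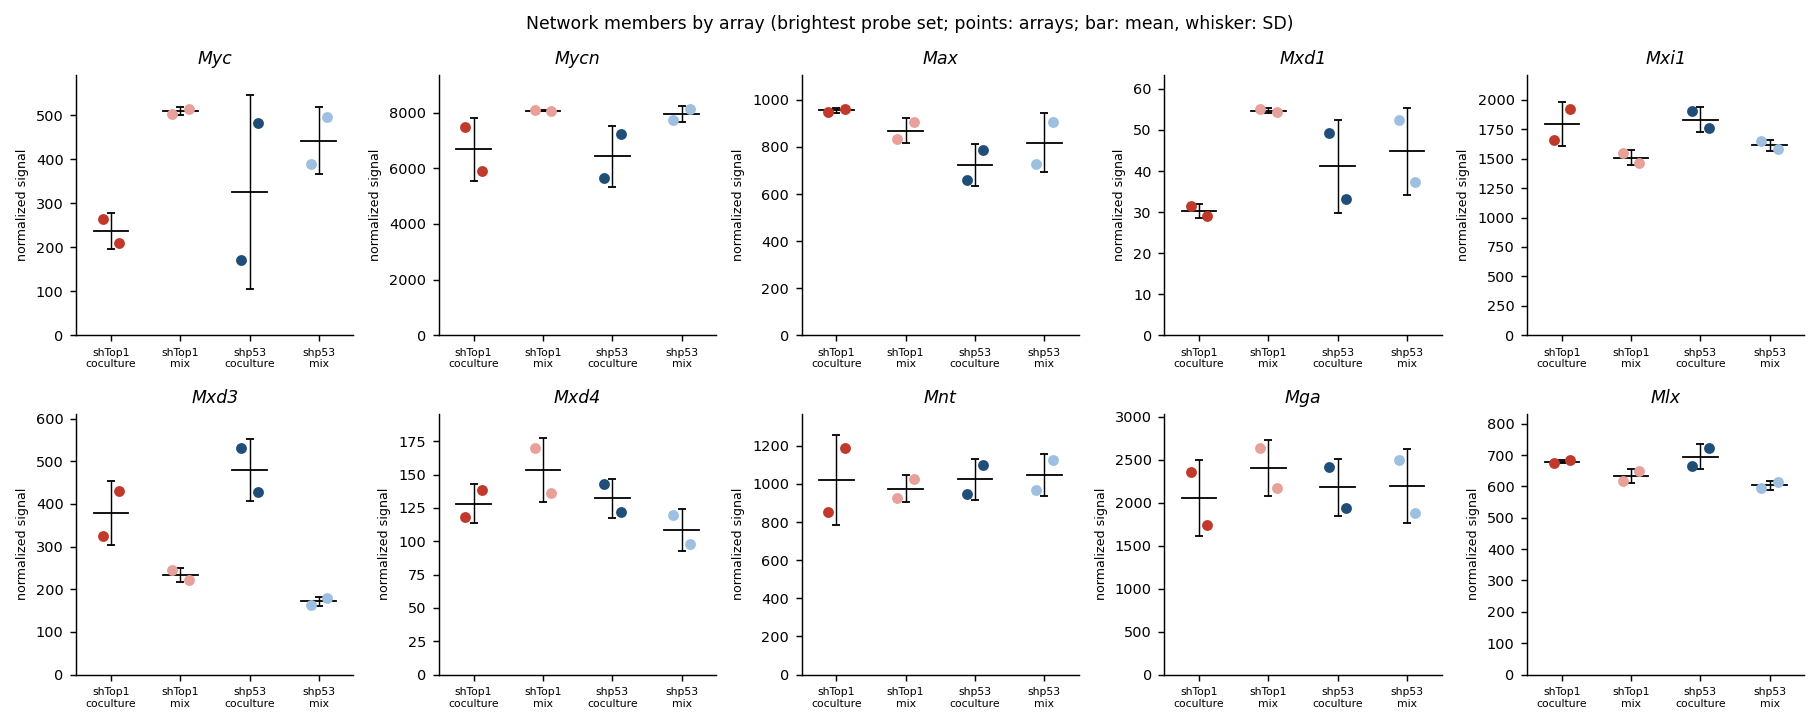
Normalized signal (vertical axes, linear, from 0) of the brightest probe set of each of the 10 members in the 4 groups, with 1 point per array and the mean and SD of 2 arrays. Mxd3 shows both cocultures above both mixes in each knockdown, and the Myc points of the shp53 coculture lie far apart, at 170.2 and 482.

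Myc, whose protein drives ribosome production and cell cycle entry, was measured by 1 probe set. It had signals of 266 and 209 in the shTop1 cocultures, against 503 and 516 in the shTop1 mixes. In the shp53 cocultures it had 170.2 and 482, against 389 and 497 in the shp53 mixes. The shTop1 groups did not overlap, with cocultures near 0.479 times the mixes on the scale of signal plus 16. Of the shp53 cocultures, 1 lay below both shp53 mixes and the other lay between them. The log2 difference was -1.06 ± 0.44 with shTop1 and -0.58 ± 0.44 with shp53 (SE, n = 2 against 2), and -0.82 ± 0.31 as the mean of both (limma, unadjusted p = 0.0373, adjusted p = 0.40). Only 0.652% of genes had a mean difference of larger size. Without shp53 coculture replicate 1, the lowest of the 8 arrays for Myc, the mean difference was -0.47 and the shp53 difference 0.13. Without shp53 coculture replicate 2 they were -1.18 and -1.29.

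Mycn, a Myc relative active in embryonic cells, was measured by 3 probe sets. The brightest had 7476 and 5886 in the shTop1 cocultures, against 8074 and 8066 in the shTop1 mixes. It had 5656 and 7210.3 in the shp53 cocultures, against 7747 and 8142 in the shp53 mixes. Every coculture was below every mix, and the 2 arrays lowest for Mycn, shp53 coculture replicate 1 and shTop1 coculture replicate 2, were also the 2 lowest for Myc. The mean log2 difference was -0.30 ± 0.12 (SE; limma, unadjusted p = 0.0444, adjusted p = 0.414). It was -0.28 ± 0.17 with shTop1 and -0.31 ± 0.17 with shp53.

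The second Mycn probe set, at a mean signal of 633, had a mean difference of -0.36 ± 0.23, but 1 of its cocultures, shTop1 replicate 1 at 821, was above all 4 mixes. The third, at 126, ran the other way, with 0.50 ± 0.20 (limma, unadjusted p = 0.0478, adjusted p = 0.462). Its signal was 157 and 177 in the shTop1 cocultures, against 65.1 and 127 in the shTop1 mixes, and 125 and 136 in the shp53 cocultures, against 91.0 and 129 in the shp53 mixes. With the 3 probe sets averaged the Mycn difference was -0.054, and with shTop1 alone it was 0.11.

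E2F factors, which switch on genes for DNA replication, are known to act on the Mycn promoter through motifs close to its start. The promoter sequences printed here come from RefSeq on build GRCm38.p6 and run from 250 bases before to 50 bases after a gene's start. The table had entries for 9 of the 10 members (11 promoters), and Myc had none. A search on both strands for TTTCCCGC, TTTCGCGC, TTTGCCGC or TTTGGCGC found 3 matches in the Mycn promoter, which begin 183, 179 and 168 bases before the start and of which the first pair overlap. A match was held by 2.26% of the 32851 promoters, and of the 9 members Mycn alone had one. The Mycn promoter is shown with the matches in capitals.
Mycn (chr12:12941787-12942086, minus strand): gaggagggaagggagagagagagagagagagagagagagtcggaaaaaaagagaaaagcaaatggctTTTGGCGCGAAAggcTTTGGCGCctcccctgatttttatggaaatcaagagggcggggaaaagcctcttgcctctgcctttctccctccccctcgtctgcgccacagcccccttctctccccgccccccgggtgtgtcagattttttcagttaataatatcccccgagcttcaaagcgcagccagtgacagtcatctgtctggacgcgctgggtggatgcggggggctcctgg

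Max, the common partner, differed little between coculture and mix. It had 949 and 963 in the shTop1 cocultures, against 832 and 907 in the shTop1 mixes, and 660.3 and 788 in the shp53 cocultures, against 729 and 907 in the shp53 mixes. The shTop1 cocultures were above their mixes, while the shp53 groups overlapped. The mean log2 difference was -0.017 ± 0.10 (SE; limma, unadjusted p = 0.876), and its sign changed with single arrays left out, from -0.094 to 0.060. Its log2 difference was 0.14 ± 0.15 with shTop1 and -0.17 ± 0.15 with shp53.

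Mxd3, the Mxd protein typical of proliferating cells, had the largest mean difference of the 10 members by their brightest probe sets, though Myc was larger in size with shTop1 and with probe sets averaged. Its brightest probe set had 325 and 431 in the shTop1 cocultures, against 245 and 221 in the shTop1 mixes. It had 531 and 428 in the shp53 cocultures, against 163 and 179 in the shp53 mixes. Cocultures and mixes did not overlap in either knockdown. The mean log2 difference was 1.02 ± 0.12 (SE), or 2.03 times the mixes as signal plus 16, with an unadjusted p of 0.000156 that ranked 6 among 14267 genes (limma, adjusted p = 0.279). It was 0.65 ± 0.17 with shTop1 (unadjusted p = 0.00958) and 1.40 ± 0.17 with shp53 (unadjusted p = 0.000191, rank 10, limma adjusted p = 0.271). With trended and robust variances Mxd3 was the only member called, with a limma adjusted p of 0.00949 for the mean and 0.0423 for shp53.

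The 2 dimmer Mxd3 probe sets had mean differences near 0, with a direction that depended on the knockdown. At a mean signal of 144 the next brightest had 235 and 142 in the shTop1 cocultures, against 167 and 157 in the mixes, and 115 and 71.2 in the shp53 cocultures, against 123 and 146 in the mixes. Its mean log2 difference was -0.16 ± 0.20 (SE), and that of the dimmest, at 108, was -0.034 ± 0.15. With shTop1 both were above 0, like the brightest, at 0.16 ± 0.28 and 0.36 ± 0.21, with overlapping groups. With shp53 both had cocultures below mixes without overlap, at -0.49 ± 0.28 and -0.42 ± 0.21. Over the 8 arrays the 2 dim probe sets followed each other (r = 0.812) but not the brightest (r = -0.302 and -0.303), which describes arrays that share these groups. With the 3 averaged, the mean Mxd3 difference was 0.28, and 0.16 with shp53, so its size rests on 1 probe set.

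**Figure D2:**
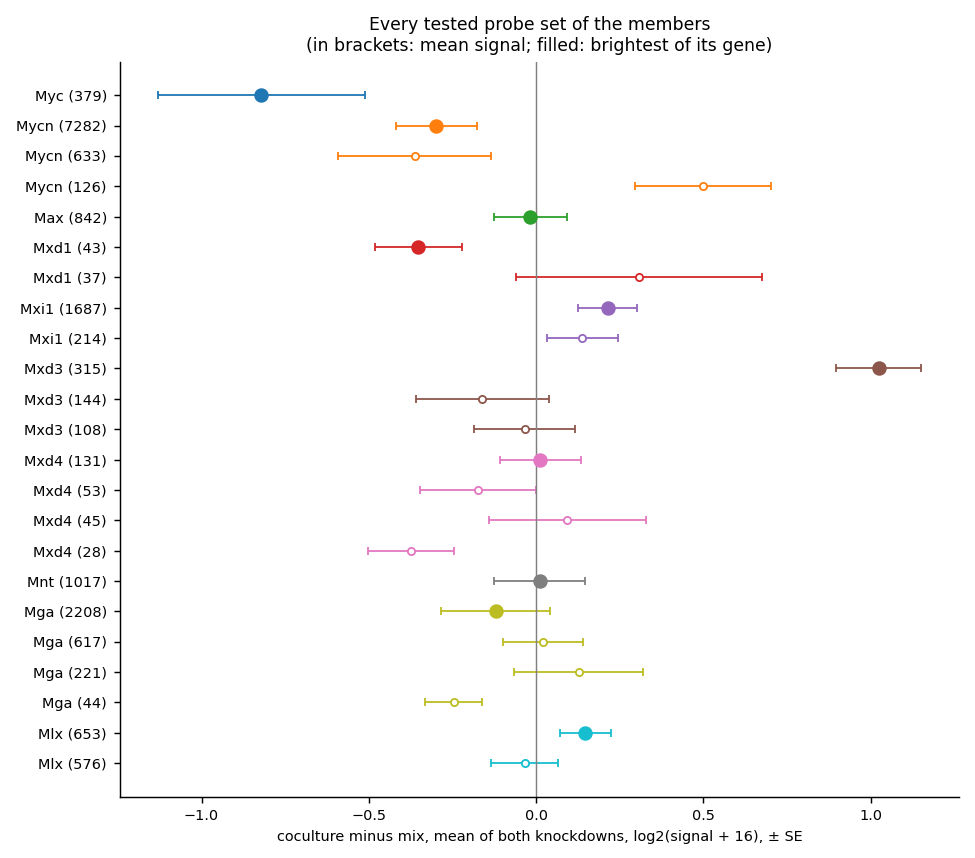
Log2 difference of coculture minus mix, averaged over both knockdowns, with its SE (horizontal axis) for the 23 tested probe sets of the members, labelled by gene and mean signal, the brightest of each gene filled. The brightest Mxd3 probe set lies at 1.02 and its 2 dimmer ones at -0.16 and -0.034, and the 3 Mycn probe sets lie at -0.30, -0.36 and 0.50.

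Mxi1, an Mxd protein linked to cells that leave the cell cycle, had 1659 and 1926 in the shTop1 cocultures, against 1552 and 1462 in the shTop1 mixes. It had 1907 and 1759.5 in the shp53 cocultures, against 1646 and 1579 in the shp53 mixes. Each coculture was above each mix, by a small step. The mean log2 difference was 0.21 ± 0.08 (SE; limma, unadjusted p = 0.0395, adjusted p = 0.401), with 0.24 ± 0.12 for shTop1 and 0.18 ± 0.12 for shp53. The dimmer Mxi1 probe set, at 214, had a difference of 0.14 ± 0.11, and its cocultures were above its mixes in shp53 but not in shTop1.

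Mxd1, which is best known from differentiating cells, was close to the filter. Its brightest probe set had 31.5 and 29.2 in the shTop1 cocultures, against 55.2 and 54.3 in the shTop1 mixes. It had 49.2 and 33.2 in the shp53 cocultures, against 52.3 and 37.4 in the shp53 mixes. The shTop1 groups were apart and the shp53 groups overlapped. The mean log2 difference was -0.35 ± 0.13 (SE; limma, unadjusted p = 0.0318, adjusted p = 0.386), -0.61 ± 0.18 with shTop1 (unadjusted p = 0.0141) and -0.093 ± 0.18 with shp53. A second probe set near the same level had 0.31 ± 0.37, and the mean of all 3 gave -0.13.

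Mxd4, another Mxd protein of cells that stop dividing, had opposite signs in the 2 knockdowns. Its brightest probe set had 118 and 138 in the shTop1 cocultures, against 170.0 and 136 in the mixes, and 143 and 122 in the shp53 cocultures, against 119.9 and 97.5 in the mixes. Its log2 difference was -0.23 ± 0.16 with shTop1 and 0.25 ± 0.16 with shp53, and the difference between them was -0.48 ± 0.23 (SE; limma, unadjusted p = 0.0857, adjusted p = 1). The mean of both was 0.013 ± 0.12.

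Mnt, the most widely expressed Max-binding repressor, had 855 and 1189.8 in the shTop1 cocultures, against 925 and 1025 in the mixes, and 948 and 1101 in the shp53 cocultures, against 968 and 1124 in the mixes. The groups overlapped in both knockdowns, with a mean log2 difference of 0.010 ± 0.13 (SE). A second Mnt probe set, under the filter and so not tested, had 33.6 and 10.4 in the shTop1 cocultures, against 6.40 and 3.89 in the mixes, and 33.2 and 7.51 in the shp53 cocultures, against 5.93 and 5.32 in the mixes. Its cocultures were above its mixes at very low signals, and with both probe sets averaged the Mnt difference was 0.36.

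Mga, the large scaffold protein of the Max-containing Polycomb complex, had 2365 and 1741 in the shTop1 cocultures, against 2641 and 2173 in the mixes, and 2416 and 1942 in the shp53 cocultures, against 2503 and 1887 in the mixes. Within each group the first replicate was the higher one, the groups overlapped, and the mean log2 difference was -0.12 ± 0.16 (SE). The other 3 tested Mga probe sets had differences of 0.021 ± 0.12, 0.13 ± 0.19 and, for the dimmest at 44.4, -0.25 ± 0.09 (limma, unadjusted p = 0.0278, adjusted p = 0.428).

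Mlx had 675 and 683 in the shTop1 cocultures, against 618 and 648 in the shTop1 mixes, and 666 and 723 in the shp53 cocultures, against 594 and 613 in the shp53 mixes. The cocultures were above the mixes in both knockdowns, and the step was small, with a mean log2 difference of 0.15 ± 0.07 (SE; limma, unadjusted p = 0.0731, adjusted p = 0.459). The other Mlx probe set, at 576, had a difference of -0.034 ± 0.10, with overlapping groups.

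**Figure D3:**
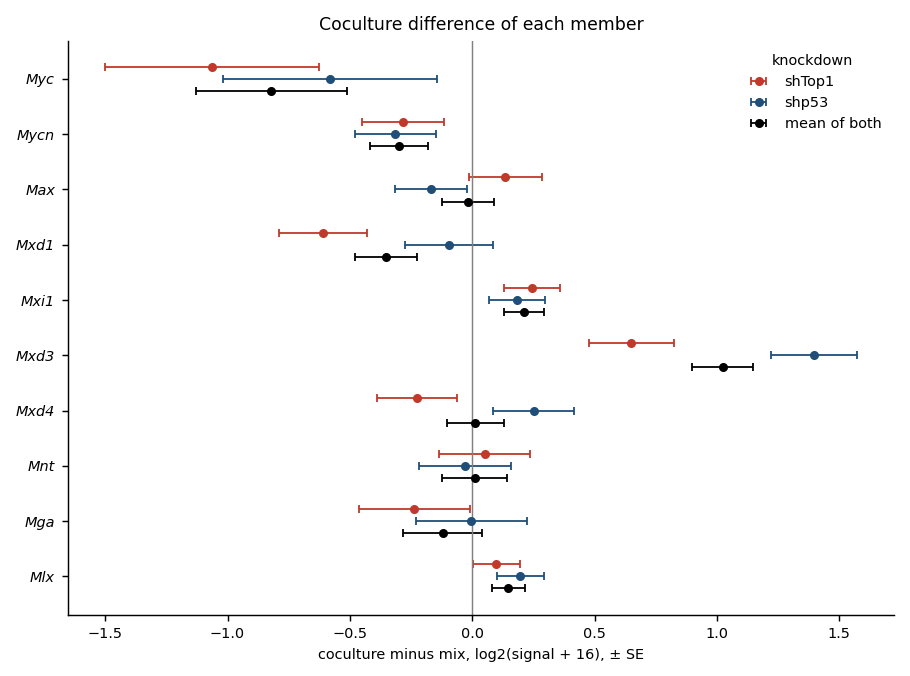
Log2 difference of coculture minus mix with its SE (horizontal axis) for each member's brightest probe set, with shTop1, shp53 and their mean drawn apart. Mxd3 reaches 0.65 with shTop1 and 1.40 with shp53, Myc lies at -1.06 and -0.58, and Mxd4 lies at -0.23 and 0.25.

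Counting each of the 23 tested probe sets by itself, 2 had a higher mean coculture signal at an unadjusted p below 0.05 (1 each of Mycn and Mxd3), against 5.61% of the 26118 probe sets tested, and 5 a lower one (1 each of Myc, Mycn, Mxd1, Mxd4 and Mga), against 5.15%. None was called after adjustment. Probe sets of 1 gene read the same gene and are not independent of each other.

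Within single knockdowns 0 of 10 members were called (0% of all genes in each), with smallest adjusted p of 0.544 among the members for shTop1 and 0.271 for shp53. At an unadjusted p below 0.05, Mxd3 was higher and Mxd1 lower with shTop1, against 5.12% and 3.08% of all genes, and Mxd3 was higher with shp53, against 3.87%, while none was lower, against 2.99%. With shTop1, Mxd3 was lost without shTop1 mix replicate 2, and Mxd1 without shTop1 coculture replicate 2 or shTop1 mix replicate 1. With shp53, Mxd3 was kept without any single array, and Myc and Mycn were also lower without shp53 coculture replicate 2. The 2 shTop1 cocultures lay above both shTop1 mixes for 4 members (Max, Mxi1, Mxd3 and Mlx), as for 24.5% of genes, and below them for 3 (Myc, Mycn and Mxd1), as for 16.9%. With shp53, 4 members lay above (Mxi1, Mxd3, Mxd4 and Mlx), as for 20.9% of genes, and 1 below (Mycn), as for 17.1%.

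The coculture difference was then compared between the knockdowns, as shTop1 minus shp53. Mxd3 had -0.75 ± 0.25 (SE; limma, unadjusted p = 0.023, adjusted p = 1), and it was the only 1 of 10 members at an unadjusted p below 0.05, against 1.68% of genes lower and 2.63% higher. It no longer was with median centring or without shTop1 coculture replicate 1, shTop1 mix replicate 1, shp53 coculture replicate 1 or shp53 mix replicate 1. With a gene's probe sets averaged, Mxd4 and not Mxd3 was at that threshold. The 2 dimmer Mxd3 probe sets had the opposite sign, at 0.65 ± 0.40 and 0.78 ± 0.30 (limma, unadjusted p = 0.151 and 0.0405, adjusted p = 1 for both), so the probe sets of Mxd3 disagree on which knockdown had the larger difference. For Mxd1 the value was -0.52 ± 0.25, for Myc -0.48 ± 0.62, for Max 0.31 ± 0.21 and for Mycn 0.032 ± 0.24. No gene was called in this comparison (0%).

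shTop1 arrays were also set against shp53 arrays over both conditions. None of the 10 members reached an unadjusted p below 0.05, against 2.4% of genes higher and 2.29% lower, and no gene was called (0%). No member had its 4 shTop1 arrays all above or all below its 4 shp53 arrays, which 1.02% and 1.07% of genes did. By brightest probe sets Max had the smallest p, with 913 ± 58.8 in shTop1 arrays and 771 ± 105 in shp53 arrays (SD, n = 4 each), a log2 difference of 0.25 ± 0.10 (SE; limma, unadjusted p = 0.0561, adjusted p = 0.999). Max was below an unadjusted 0.05 with the replicate block, the stricter filter, trended and robust variances, a pseudocount of 64, and without shp53 coculture replicate 2 or shp53 mix replicate 2. Among dimmer probe sets, 1 of Mxd4 had -0.65 ± 0.13 (limma, unadjusted p = 0.00221, adjusted p = 0.696) and 1 of Mxd3 had 0.57 ± 0.20 (limma, unadjusted p = 0.0272, adjusted p = 0.999). Myc averaged 373 ± 159 in shTop1 arrays and 384 ± 151 in shp53 arrays (SD, n = 4 each), and Mycn 7376 ± 1032 and 7189 ± 1091.

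The E-box CACGTG reads the same on both strands and is the motif that the network's proteins bind. It was found in the promoters of 4 of the 9 members in the table, Max, Mlx, Mnt and Mxd4, and in 7.15% of all 32851 promoters. The motif holds a CpG, and the members' promoters had 14 to 49 CpG each, beside a median of 7.0 over all promoters, so the shares are not of like sequences. The first base of the match lay 3 bases before the start in Max, 40 in Mlx, 123 in Mnt and 219 in Mxd4. The 4 genes had mean coculture differences of -0.017, 0.15, 0.010 and 0.013, and the letters were not in the promoters of Mycn, Mxd1, Mxi1, Mxd3 and Mga. Windows of 46 bases are shown, with the E-box in capitals, because these are the members that carry the network's own motif.
Max (chr12:76962226-76962271, minus strand): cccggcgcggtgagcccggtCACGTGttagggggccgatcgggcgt
Mlx (chr11:101087230-101087275, plus strand): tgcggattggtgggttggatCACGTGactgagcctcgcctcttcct
Mnt (chr11:74830781-74830826, plus strand): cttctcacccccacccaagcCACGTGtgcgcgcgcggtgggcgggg
Mxd4 (chr5:34187904-34187949, minus strand): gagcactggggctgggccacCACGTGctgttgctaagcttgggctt

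The genes whose signal over the 8 arrays was most like that of 3 members were looked up among the 7134 tested genes of higher signal, by Pearson's r. For Myc they were Chordc1 (0.981), Yrdc (0.974), Keap1 (0.965), Ints5 (0.965) and Cacfd1 (0.964). For Mycn they were Rpl7l1 (0.984), Zfp105 (0.973), Fam169a (0.972), Naa35 (0.970) and Prmt1 (0.969). For the brightest Mxd3 probe set they were Atg12 (0.986), Slc19a2 (0.972), Lamtor2 (0.969), Denn2b (0.967) and Kdelr3 (0.966). These values pick the highest of many and describe 8 arrays that share groups and mock cells. Chordc1, for example, had 3575 and 3393 in the shTop1 cocultures, against 3967 and 4170.1 in the mixes, and 3339 and 4089.9 in the shp53 cocultures, against 3961 and 4167 in the mixes, the same split of the shp53 cocultures as for Myc.

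The network's relatives, partners and targets were followed through 8 gene lists, of which each gene is given in the mean coculture comparison. The lists were chosen with earlier results of these data known, so shares of all genes given beside their counts are no test. Mycl, the third Myc gene, Mlxip and Mlxipl had log2 differences of 0.039 ± 0.21, 0.037 ± 0.11 and 0.094 ± 0.19 (SE). Of 16 tested cofactors and regulators of Myc protein, 9 were above 0 and 7 below, with a median of 0.016. Ep400, a chromatin remodeller of the Tip60 complex, had 0.38 ± 0.09 (limma, unadjusted p = 0.00536, adjusted p = 0.333), the mitotic kinase Aurka 0.13 ± 0.07 and Cip2a, which protects Myc protein from breakdown, -0.29 ± 0.17. Of 8 corepressor genes of the Mxd proteins and Mnt, 4 were above 0 and 4 below, with a median of -0.0034. The scaffold genes Sin3b and Sin3a had 0.24 ± 0.09 and 0.23 ± 0.11, and the deacetylase gene Hdac1 -0.14 ± 0.07.

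Genes that Myc is known to activate for growth were mostly slightly below 0. Of 31 tested, 21 were below 0, beside 44.7% of all genes, and 10 were above. The median was -0.049 beside 0.022 over all genes, and with median centring 0.036 beside 0.068 over all genes. None was called, and 1, Nop58, a nucleolar protein gene, was lower at an unadjusted p below 0.05, beside 4.63% of all genes. Nop58 had 7311 and 6449 in the shTop1 cocultures, against 8137 and 8122 in the mixes, and 6391 and 7492 in the shp53 cocultures, against 8071 and 7787 in the mixes. All 4 cocultures were below all 4 mixes, which 3.35% of all genes showed. The log2 difference of Nop58 was -0.22 ± 0.09 (SE; limma, unadjusted p = 0.0432, adjusted p = 0.409). Polr1b, a subunit of RNA polymerase I, had -0.24 ± 0.10, and Eif4e, the cap-binding translation factor, 0.16 ± 0.07.

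Of 11 genes known to be repressed by Myc, 7 were above 0 and 4 below, with a median of 0.16, and 4 were higher at an unadjusted p below 0.05, where 55.3% of all genes were above 0 and 7.09% were higher at that threshold. Ndrg1, a stress gene that low oxygen also induces, had 2028 and 1826 in the shTop1 cocultures, against 1421 and 1375 in the mixes, and 2249.8 and 1691 in the shp53 cocultures, against 1382 and 1262 in the mixes. Its groups did not overlap, and its log2 difference was 0.51 ± 0.11 (SE; limma, unadjusted p = 0.00374, adjusted p = 0.333). With trended and robust variances Ndrg1 was called, with a limma adjusted p of 0.0496. Cdkn1a, a cell cycle inhibitor that p53 also activates, had 0.44 ± 0.12, and Ndrg2 had 0.40 ± 0.11. The fourth, Gadd45b, had 0.27 ± 0.10. It was in the list from the start, and only the choice to name it in the text came after its value was seen. Cdkn1c, another cell cycle inhibitor of the list, went the other way, at -0.20 ± 0.08 (limma, unadjusted p = 0.0507). With shp53 alone, 2 of the list were higher at an unadjusted p below 0.05, beside 3.87% of all genes. Cdkn1c was the 1 lower, beside 2.99%. Leaving out each array in turn, the list's median was 0.055 to 0.20, and it was lowest without shTop1 coculture replicate 2, at 0.055, without shTop1 mix replicate 2, at 0.086, and without shp53 mix replicate 2, at 0.089.

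Genes linked to MondoA, ChREBP and Mlx, which respond to glucose metabolites, were all above 0. All 6 tested lay above 0, with a median of 0.28, and 4 of them were higher at an unadjusted p below 0.05, beside 55.3% and 7.09% of all genes, though none was called. As the list was chosen with earlier results of these data known, these shares are no test of it. Leaving out 1 array, the median was 0.23 to 0.36. Txnip, which restrains glucose uptake and is the best known target of MondoA and Mlx, had 5349 and 7349 in the shTop1 cocultures, against 4294 and 3645 in the shTop1 mixes. It had 6994 and 5620.3 in the shp53 cocultures, against 4318 and 4940.3 in the shp53 mixes. All 4 cocultures were above all 4 mixes, with a log2 difference of 0.55 ± 0.14 (SE; limma, unadjusted p = 0.00807, adjusted p = 0.345).

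Klf10, a Krüppel-like transcription factor gene, had 0.27 ± 0.08 and Txndc16 0.50 ± 0.17. Arrdc4, an arrestin gene of the same list known with Txnip as a MondoA target, was likewise in the list from the start and singled out in the text after its value was seen. It had 1707 and 2029.7 in the shTop1 cocultures, against 1472 and 1469 in the mixes, and 1985 and 1600.3 in the shp53 cocultures, against 1472 and 1501 in the mixes, a log2 difference of 0.30 ± 0.10 (limma, adjusted p = 0.375). Hk2, hexokinase 2, and Pklr, pyruvate kinase of liver and red cells, had 0.099 ± 0.07 and 0.20 ± 0.27. Hk2 is also a glycolysis gene that low oxygen induces.

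**Figure D4:**
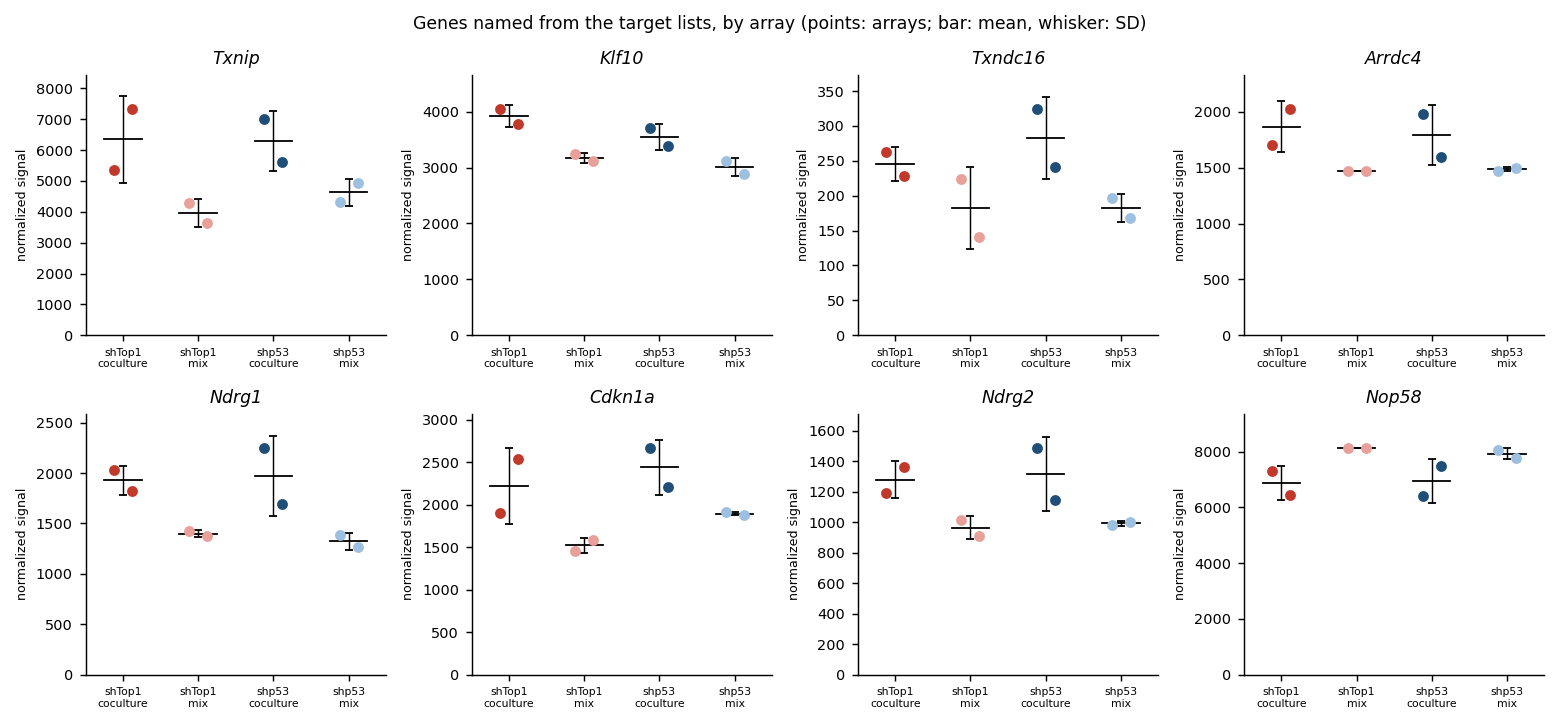
Normalized signal (vertical axes, linear, from 0) of 8 genes from the target lists in the 4 groups, with 1 point per array and the mean and SD of 2 arrays. For Txnip, Klf10, Txndc16, Arrdc4, Ndrg1 and Ndrg2 the 4 cocultures lie above the 4 mixes, for Nop58 they lie below, and for Cdkn1a they overlap.

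MondoA or ChREBP with Mlx binds a carbohydrate response element, a pair of E-box-like sites. It was searched on both strands as 2 copies of CACGNG, with N for any base, set 5 bases apart, and was in 16 of 32851 promoters, or 0.0487%. Of the 5 listed targets in the table (6 promoters), Txnip held it, with its first base 85 bases before the start, and Klf10 was not in the table. Arrdc4 held a plain E-box with its first base 193 bases before the start. Both sequences are shown, Txnip as the whole promoter and Arrdc4 as a window, with the motif in capitals, because they are the targets that held a motif. Txndc16, whose cocultures were also all above its mixes, held neither.
Txnip (chr3:96557707-96558006, plus strand): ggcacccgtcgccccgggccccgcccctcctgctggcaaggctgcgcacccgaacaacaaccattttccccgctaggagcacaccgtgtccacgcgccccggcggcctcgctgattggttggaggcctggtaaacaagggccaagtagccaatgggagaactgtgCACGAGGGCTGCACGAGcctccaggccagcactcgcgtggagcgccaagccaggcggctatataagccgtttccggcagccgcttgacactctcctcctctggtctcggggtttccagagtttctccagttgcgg
Arrdc4 (chr7:68749406-68749451, minus strand): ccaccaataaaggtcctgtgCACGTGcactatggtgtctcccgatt

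The last lists follow Mga. Of 13 tested genes of the Polycomb complex that holds Mga and Max, 5 were above 0 and 8 below, with a median of -0.026. Its E2f6 subunit gene had 0.15 ± 0.08, its Tfdp1 subunit gene -0.13 ± 0.07 and Hdac1 the value given above. Of 17 tested germline genes that this complex silences in mouse embryonic stem cells, 11 were above 0 and 6 below, with a median of 0.099, and 2 more of the list were under the filter. Leaving out each array in turn, that median was 0.0044 to 0.17, the low end without shp53 coculture replicate 1 and the high end without shp53 coculture replicate 2. Mov10l1, a helicase gene of the piRNA pathway, had 165 and 143 in the shTop1 cocultures, against 114 and 119 in the mixes, and 188 and 191 in the shp53 cocultures, against 122 and 109 in the mixes. The groups were apart in both knockdowns, with a log2 difference of 0.50 ± 0.08 (SE; limma, unadjusted p = 0.000655, adjusted p = 0.333). The meiotic gene Hormad1 had -0.81 ± 0.34 and Taf7l, a germ cell transcription factor gene, 0.16 ± 0.07.

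**Figure D5:**
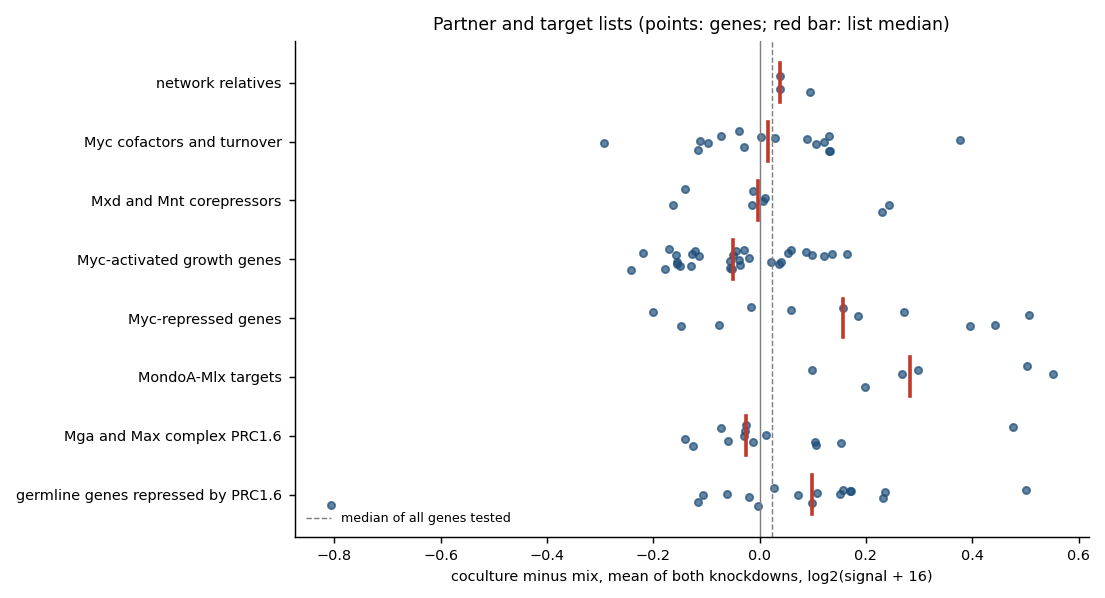
Log2 difference of coculture minus mix, averaged over both knockdowns (horizontal axis), for each tested gene of the 8 lists, with the list median as a red bar and the median of all genes tested, 0.022, as a dashed line. The 6 genes linked to MondoA and Mlx all lie above 0, with a median of 0.28, and the growth genes centre at -0.049. The lists were chosen with earlier results of these data known.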

How the data were processed

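The 8 arrays were deposited as linear intensities, 1 value per probe set, which the authors had scaled to a common 2% trimmed mean (500.003 to 500.004 over the arrays, checked on the values). No source used here names the software behind them. Quantile normalization was applied first, then log2(signal + 16). Of 45101 probe sets, 34958 had 1 symbol in the platform annotation, 932 had several and 9211 were not listed. The brightest probe set stood for its gene, and genes under the 30th percentile of mean log2 (5.25) were left out, which kept 14267 of 18194. A 4-group limma model (limma 3.58.1, R 4.3.3) with 4 residual degrees of freedom gave differences, SE and Benjamini-Hochberg adjusted p-values over all genes tested, called at 0.05. The number of arrays, 2 per group, limits the precision. On simulated arrays of independent values, without batches or outlying arrays, the fit returned the differences put in. That checks the code and says nothing about calls from these arrays.

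Members and lists were chosen with earlier results of these data known. All members, all their tested probe sets, Top1 and the 3 genes of smallest p in each list were named. Lists are described by counts and medians, without a test. Promoter motifs were searched in RefSeq sequences of GRCm38.p6. The alternatives were the replicate number as a block, scaling, filter, pseudocount (1 and 64), probe set rule, variance model and leaving out each array. The p53 gene was not analysed here.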

Additional observations from a re-analysis of the deposited data

Results flagged for a closer look

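Beside its brightest probe set, Mxd4 had 2 dimmer ones whose coculture difference had opposite signs in the 2 knockdowns, with every shTop1 coculture below both its mixes and every shp53 coculture above both its mixes. The first had 64.6 and 31.9 in the shTop1 cocultures, against 77.1 and 64.8 in the mixes, and 46.8 and 52.9 in the shp53 cocultures, against 44.7 and 43.2 in the mixes, and in shTop1 the higher coculture and the lower mix were nearly equal. Its difference between the knockdowns was -0.61 ± 0.35 on the log2 scale (SE, shTop1 minus shp53; limma interaction, unadjusted p = 0.127, adjusted p = 1). The second had 9.12 and 5.69 in the shTop1 cocultures, against 36.5 and 25.2 in the mixes, and 45.9 and 35.4 in the shp53 cocultures, against 27.9 and 35.4 in the mixes. Its difference was -1.24 ± 0.26 (limma interaction, unadjusted p = 0.0028, adjusted p = 0.831). Its mean signal of 27.6 was close to the filter of 22.1, and both its shTop1 cocultures were under that filter. In shp53 the lower coculture and the higher mix were nearly equal. The fourth Mxd4 probe set, at 44.6, had 0.27 ± 0.47. The 2 flagged probe sets were picked by their lack of overlap in opposite directions, out of the 23 tested probe sets of the members. How many of all probe sets had that pattern was not counted. By brightest probe sets, 16.9% of genes had shTop1 cocultures below their mixes, and 20.9% had shp53 cocultures above theirs.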

How the results depend on the processing

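With 2 arrays a group, several differences rest on 1 array or 1 probe set, and Mxd1 and Mxd4 were dim. Of 557 member values under alternatives, which cover the mean, shTop1 and shp53 comparisons but not the comparisons between knockdowns, 526 kept their direction and side of the threshold, 29 reversed and 2 became called. No member was called in the main fit, so no call could be lost. The replicate block, the variance model or an array left out of the other knockdown cannot change a difference. The count of 526 therefore overstates how stable the values were. With trended and robust variances 31 genes were called in the mean comparison, 3 in shTop1 and 1 in shp53, with 1 member, Mxd3, called in the mean and 1 in shp53. Without that setting 0 were called in each. Replicate numbers did not pair the arrays: deviations of same-numbered arrays correlated at -0.0067 to 0.051. With the replicate number as a block, 0 genes were called, and 1002 genes were higher and 690 lower at an unadjusted p below 0.05, against 1012 and 660 without it. Scaling moved that split, to 1130 and 430 with median centring and to 806 and 757 with the authors' scaling alone. Mxd1 was not tested under the stricter filter.

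Some member values reversed. In the mean comparison Max was 0.037 with median centring, and Mxd4 was -0.037 with the authors' scaling and -0.11 with probe sets averaged. In shTop1 Mycn was 0.11 with probe sets averaged. In shp53 Mnt was 0.031 with median centring and 0.31 with probe sets averaged, and Mga was 0.068, 0.013 and 0.069 with median centring, the authors' scaling and probe sets averaged. Leaving out 1 array, the mean difference ran from -0.094 to 0.060 for Max, -0.060 to 0.085 for Mxd4 and -0.11 to 0.13 for Mnt. In shTop1 it ran from -0.18 to 0.28 for Mnt. In shp53 it ran from -1.29 to 0.13 for Myc, -0.30 to 0.11 for Mxd1, -0.14 to 0.077 for Mnt and -0.21 to 0.20 for Mga. With median centring, which put the median of all genes at 0.068 against 0.022 without it, list medians were 0.065 for Myc cofactors, 0.082 for corepressors, 0.036 for growth genes and 0.038 for the Mga complex, and with every probe set by itself -0.040 for Myc cofactors. Leaving out 1 array they ran from -0.014 to 0.068 for Myc cofactors, -0.044 to 0.014 for the Mga complex and 0.0044 to 0.17 for germline genes. The Top1 difference was -0.029 with median centring (p = 0.6, exact permutation), 0.15 with probe sets averaged, and -0.12 to -0.086 leaving out 1 array. The cause of these shifts was not tested.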
